A study of Mus musculus with 19 samples.

Results

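Regulatory T cells (Tregs) are the CD4+ T cells that hold immune responses in check, and they depend on the transcription factor Foxp3. In lymph nodes they fall into a resting, CD44low state, which recirculates through lymphoid organs, and an effector, CD44high state, which divides more, carries receptors for inflamed tissue and holds more suppressive mediators. CD44 itself is a surface receptor for hyaluronan that T cells raise on activation. The results below concern genes whose response to a burn differed between these subsets.

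The libraries came from a bulk RNA-seq experiment on CD4+Foxp3-GFP+ cells, sorted by FACS into CD44high and CD44low cells from the axillary, brachial and inguinal lymph nodes that drain the burn. All mice were adult Foxp3DTR animals, in which a diphtheria toxin receptor fused to GFP is expressed from the Foxp3 gene, so that GFP marks the Tregs of injured and uninjured mice alike. The injured groups were taken 7 days after the burn and held 4 CD44high libraries (numbered 2, 3, 4 and 5 in the labels) and 6 CD44low libraries (1, 2, 5, 1_2, 4_2 and 5_2), and the uninjured (sham) groups held 4 CD44high libraries (2 to 5) and 5 CD44low libraries (1 to 5), which gave 19 libraries in 4 groups. The labels and methods do not say whether a library held the cells of 1 mouse or of several, so that p-values measure the spread between these libraries.

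The genes were chosen by 1 test, the interaction: the log2 change with injury in CD44high cells minus that in CD44low cells, tested by edgeR's quasi-likelihood test over every gene that passed a filter on low counts. Of the 24982 genes in the table, 11464 passed, and 74 of those were called at an adjusted p under 0.05 (0.645% of the genes tested). For 22 genes (0.192%) the interaction was positive, which means a change upwards in CD44high relative to CD44low cells, and for 52 (0.454%) it was negative. At an unadjusted p under 0.05, 1247 genes passed. Levels are given as CPM (a gene's counts scaled to a common library total by TMM factors), as mean ± SD over the libraries of a group, and changes as log2 values ± SE. Library totals lay between 5582234 and 9433610 counts.

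Injured CD44low libraries 1_2, 4_2 and 5_2 carry a second number that the labels do not explain, so results are also given with either set of 3 left out. The chi-square per gene, which grows as 2 libraries' counts move apart, was 5.68 to 19.8 among libraries 1, 2 and 5 and 22.5 to 40.8 between these and the other 3. Among those 3 it was 12.6 between 4_2 and 5_2 and 22.1 between 1_2 and 4_2, but 41.3 between 1_2 and 5_2. With libraries 1_2, 4_2 and 5_2 left out, 314 genes were called (151 positive, 163 negative), 72 of them among the 74. With libraries 1, 2 and 5 left out, 136 genes were called (39 positive, 97 negative), 60 of them among the 74. Leaving out injured CD44high library 5 gave 43 calls, 42 of them shared. A fit that treated same-numbered libraries of a condition as paired (a replicate block on the number within condition) gave 35, 29 of them shared. Calls lost with this block included Tcf7, S100a6, Sun2, Cxcr6, Mcm7, Prf1 and Rora. In each of these fits all 74 genes kept the sign of their interaction. In bulk samples fewer cells of a type and less RNA per cell cannot be told apart, and this holds for every level below.

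The sort was visible in the counts. Cd44 was at 595 ± 37.5 CPM in uninjured CD44high and 133 ± 16.1 CPM in uninjured CD44low cells, and after injury at 436 ± 54.6 and 117 ± 18.2 CPM, with an interaction of -0.26 ± 0.16 that was not called (adjusted p = 0.601). Foxp3 was found in every library, at 87.8 ± 10.97, 70.7 ± 20.6, 115 ± 17.3 and 104 ± 46.2 CPM in uninjured CD44high, injured CD44high, uninjured CD44low and injured CD44low cells, and Cd4 at 794 ± 52.0, 857 ± 80.6, 820 ± 51.6 and 695 ± 111 CPM in the same order. Neither of these was called for the interaction (adjusted p = 0.92 for Foxp3 and 0.392 for Cd4).

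Many of the 74 genes had changes of opposite sign on the fitted means, which choosing genes by the difference of these changes favours. For 46 genes the level after injury was lower in CD44high and higher in CD44low cells, and for 12 it was the reverse. For 12 more it was higher in both and for 4 lower in both. Over all 11464 genes tested these numbers were 2354, 1911, 3479 and 3715 in the same order. The reverse pattern was thus about as frequent among the 74 as over all genes. The negative calls were, with 1 exception (Etfbkmt), genes that uninjured CD44high cells held at the higher level (51 of 52), and the positive calls were, with 1 exception (Gpr183), genes that uninjured CD44low cells held at the higher level (21 of 22). The uninjured difference shares its errors with the interaction, so choosing genes by the interaction favours such opposite signs. The change of the subset difference is described at the end, by the mean over both conditions.

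**Figure D1:**
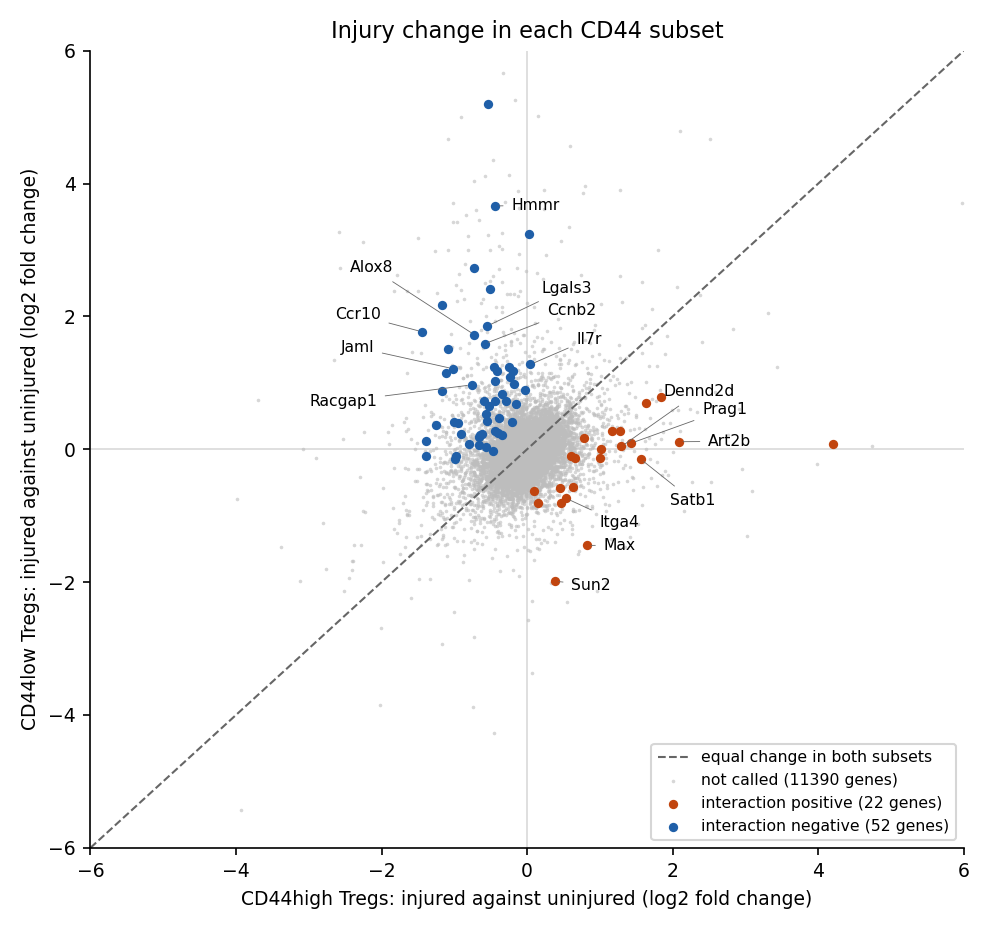
Log2 fold change between injured and uninjured mice in CD44high Tregs (x axis) and in CD44low Tregs (y axis), 1 point a gene, with the 22 positive calls of the interaction in orange, the 52 negative calls in blue and the genes not called in grey (7 of them lie outside the axes). Points on the dashed line changed equally in both subsets. The blue points lie mostly to the upper left, lower after injury in CD44high and higher in CD44low cells, and the orange points lie below the line.

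The smallest p belonged to Satb1, a chromatin organizer that resting T cells hold at a high level and that Foxp3 keeps low in Tregs. In uninjured CD44high cells it was at 32.8, 55.4, 45.7 and 54.8 CPM (libraries 2 to 5), and in injured CD44high cells at 141, 147, 119 and 151 CPM. In uninjured CD44low cells it was at 628, 615, 695, 697 and 738 CPM (libraries 1 to 5), and in injured CD44low cells between 558 and 669 CPM (median 598). Every injured CD44high library thus lay above every uninjured one, whereas the CD44low groups overlapped. The change was 1.56 ± 0.13 in CD44high and -0.15 ± 0.11 in CD44low cells, with an interaction of 1.71 ± 0.17 (adjusted p = 4.72e-06).

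Dennd2d, of a family of guanine nucleotide exchange factors for Rab GTPases, had the same form. Dennd2d was at 22.6, 23.2, 28.2 and 21.5 CPM in uninjured and at 62.0, 60.4, 53.1 and 59.1 CPM in injured CD44high cells. In CD44low cells it was at 83.3, 90.6, 90.4, 79.6 and 91.8 CPM without injury and between 79.8 and 97.9 CPM (median 90.8) with it. The injured CD44high libraries lay above the uninjured ones and still below every CD44low library, and the CD44low level overlapped between conditions (interaction 1.25 ± 0.15, adjusted p = 0.000104).

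Among the negative calls the smallest p belonged to Ccr10, the receptor for the skin and mucosal chemokines CCL27 and CCL28. It was at 188, 261, 252 and 209 CPM in uninjured and at 94.4, 70.6, 92.5 and 77.7 CPM in injured CD44high cells. In uninjured CD44low cells it was at 0, 0.788, 1.85, 1.58 and 0.844 CPM, and in injured ones between 1.99 and 5.21 CPM (median 3.44). The groups did not overlap in either subset and lay in opposite directions. The change was -1.44 ± 0.22 in CD44high and 1.77 ± 0.37 in CD44low cells, with an interaction of -3.21 ± 0.43 (adjusted p = 0.000422). The mean CD44low level was 0.445% of the CD44high level without injury and 4.37% with it.

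Racgap1, a GTPase-activating protein of the central spindle that is needed for cytokinesis, and Ccnb2, cyclin B2, which acts with CDK1 at the entry into mitosis, were the next. Racgap1 was at 213, 236, 251 and 229 CPM in uninjured and at 124, 127, 158 and 138 CPM in injured CD44high cells. In CD44low cells it was at 15.0, 15.9, 18.3, 9.63 and 8.44 CPM without injury and between 21.3 and 32.4 CPM (median 25.98) with it. Its groups were apart in both subsets, in opposite directions (interaction -1.73 ± 0.24, adjusted p = 0.00054). Ccnb2 was at 159, 177, 168 and 159 CPM in uninjured and at 127, 91.6, 118 and 105 CPM in injured CD44high cells. In uninjured CD44low cells Ccnb2 was at 1.09, 3.15, 2.70, 2.44 and 2.03 CPM, and in injured ones between 4.42 and 10.2 CPM (median 7.01). Again neither subset showed an overlap (interaction -2.17 ± 0.30, adjusted p = 0.00054). For Satb1, Dennd2d, Ccr10, Racgap1 and Ccnb2 the call held in each of the 32 alternatives tried, with both sets of injured CD44low libraries used alone among them.

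**Figure D2:**
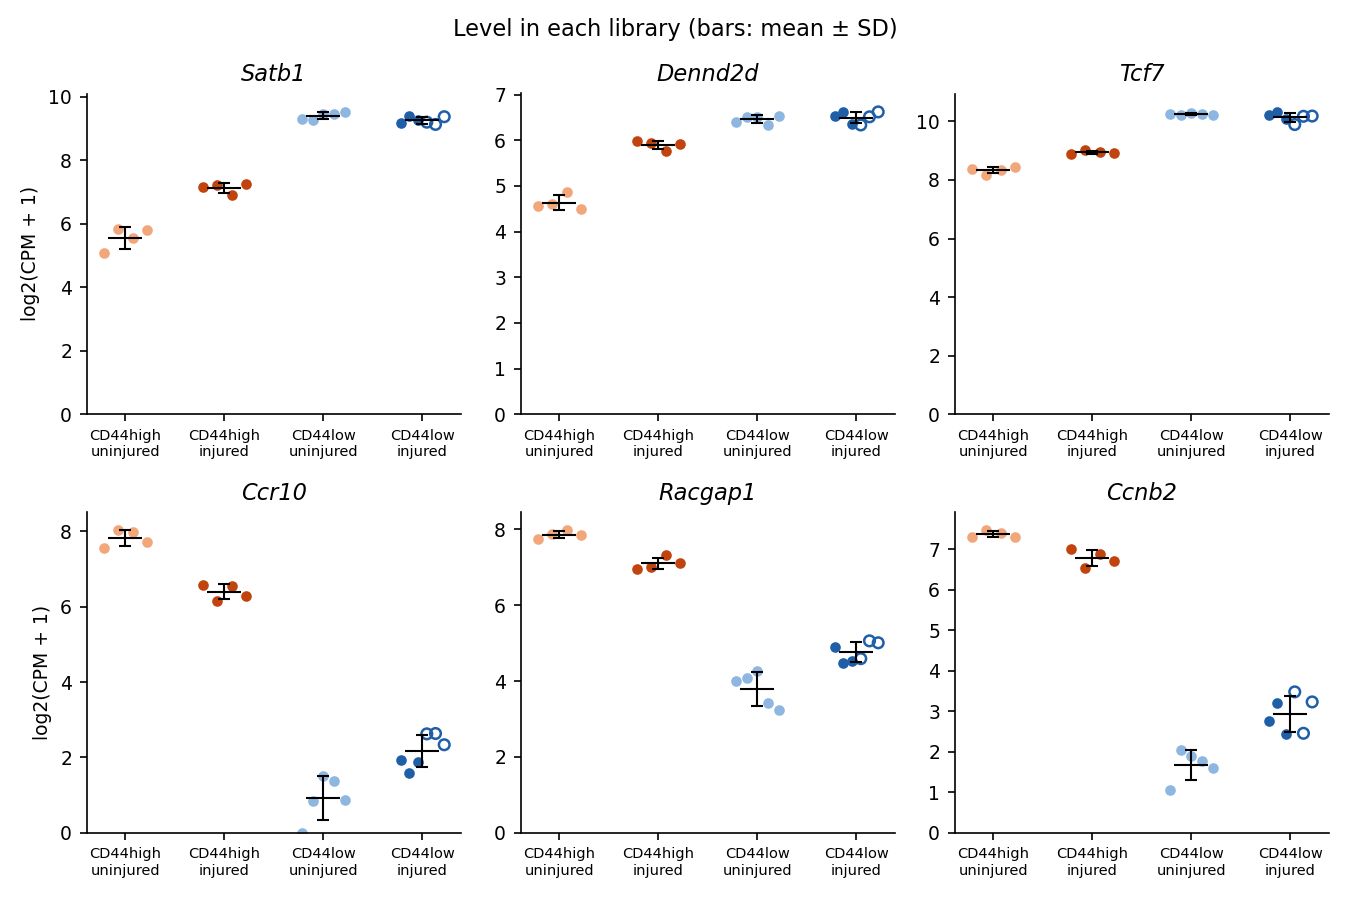
Level of 6 genes in every library on the log2(CPM + 1) scale, by subset and condition, with mean and SD as black bars and injured CD44low libraries 1_2, 4_2 and 5_2 as open circles. Satb1, Dennd2d and Tcf7 (upper row) were higher after injury in CD44high cells alone, and Ccr10, Racgap1 and Ccnb2 (lower row) were lower after injury in CD44high and higher in CD44low cells.

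The 74 genes were sorted by whether injured and uninjured libraries overlapped in each subset. Over all genes tested, the libraries did not overlap for 13.3% in CD44high and for 4.68% in CD44low cells. An opposite pattern, with no overlap in both subsets and contrary directions, was found for 9 called genes against a background of 0.0872% of all genes tested. The number was 49 with injured CD44low libraries 1_2, 4_2 and 5_2 left out, 28 with libraries 1, 2 and 5 left out, 27 without injured CD44high library 2 and 19 with injured CD44low libraries 1 and 1_2, and 5 and 5_2, summed. It was 14 with a trend on gene length taken out, an alternative chosen after seeing the data. Genes that stood apart in CD44high cells only numbered 42 (background 12.2%), and those that stood apart in CD44low cells only numbered 18 (background 3.61%). With injured CD44low libraries 1_2, 4_2 and 5_2 left out these numbers were 69 and 163, so that their order turned, and with libraries 1, 2 and 5 left out the second was 48. The first was 22 without injured CD44high library 5 and 26 without library 4, and the second was 33 without injured CD44low library 5_2. The classes use the same libraries as the test, so these counts describe the calls and add no test. Groups of fewer libraries overlap less easily, and the CD44high groups held 4 and 4 libraries against 5 and 6 in CD44low cells. Class counts are therefore not comparable between the subsets, or with fits that leave libraries out. For those fits no share over all genes is given. In 2 genes the groups stood apart in both subsets in the same direction, and in 3 they overlapped in both.

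All 9 opposite genes were lower after injury in CD44high and higher in CD44low cells. Besides Ccr10, Racgap1 and Ccnb2 they were Lgals3, Jaml, Ccr2, Il2rb, Gm10684 and Serinc3. Lgals3, the lectin galectin-3, went from 163 ± 4.85 to 111 ± 19.7 CPM in CD44high and from 1.64 ± 0.97 to 6.10 ± 1.47 CPM in CD44low cells (interaction -2.40 ± 0.34, adjusted p = 0.00054). Ccr2, the receptor for CCL2, went from 567.9 ± 62.3 to 417 ± 51.3 CPM and from 11.1 ± 2.97 to 22.6 ± 6.52 CPM in the same order (interaction -1.48 ± 0.25, adjusted p = 0.00321). For Lgals3 and Ccr2 CD44high cells stayed far above CD44low cells in both conditions, with CD44low levels after injury at 5.48% and 5.41% of the CD44high level. For Serinc3 the CD44low level was at 59.4% after injury.

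In Jaml, Il2rb and Gm10684 the subset difference changed its sign. Gm10684 was at 7.21 and 3.29 CPM in CD44high and at 2.59 and 5.81 CPM in CD44low cells before and after injury. Jaml, an adhesion molecule with roles in T cell costimulation and migration, was at 38.3 ± 7.82 CPM in uninjured CD44high and 15.2 ± 3.09 CPM in uninjured CD44low cells, and after injury at 18.8 ± 5.16 and 35.4 ± 11.9 CPM (interaction -2.23 ± 0.32, adjusted p = 0.000631). Its log2 subset difference went from 1.33 to -0.91. Il2rb, the beta chain shared by the receptors for IL-2 and IL-15, had a much smaller interaction of -0.61 ± 0.12 (adjusted p = 0.0157), with 1884 ± 82.2 and 1633 ± 149 CPM in CD44high and 1412 ± 78.1 and 1874 ± 203 CPM in CD44low cells before and after injury. Without injured CD44high library 5 the call of Il2rb was lost (-0.58, adjusted p = 0.0554). In all, the sign of the subset difference changed for 15 of the 74 genes.

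Of the 42 genes set apart in CD44high cells only, 29 had a negative and 13 a positive interaction. The positive ones included Satb1 and Dennd2d. Tcf7, which encodes the factor TCF-1 of naive and memory T cells, went from 323 ± 24.2 to 491 ± 18.4 CPM in CD44high cells and was at 1214 ± 20.8 and 1135 ± 114 CPM in CD44low cells (interaction 0.70 ± 0.12, adjusted p = 0.00321). Art2b, a surface ADP-ribosyltransferase of mouse T cells, went from 8.38 ± 3.63 to 35.6 ± 11 CPM in CD44high cells (interaction 1.97 ± 0.38, adjusted p = 0.0121). Prag1, a pseudokinase, went from 16.2 ± 4.69 to 43.3 ± 12.9 CPM (interaction 1.34 ± 0.26, adjusted p = 0.0129). These 3 genes moved in CD44high cells towards a CD44low level that overlapped between conditions.

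On the negative side of that class stood Alox8, a lipoxygenase, and Myadm, a membrane protein with a MARVEL domain. Alox8 went from 51.8 ± 4.47 to 31.4 ± 4.60 CPM in CD44high cells and from 1.13 ± 0.581 to 3.77 ± 1.18 CPM in CD44low cells, where the ranges overlapped (interaction -2.45 ± 0.36, adjusted p = 0.000676). Myadm went from 178 ± 19.7 to 79.5 ± 10.3 CPM in CD44high cells and from 3.72 ± 2.27 to 6.93 ± 2.20 CPM in CD44low cells (interaction -2.05 ± 0.34, adjusted p = 0.00321). Uninjured CD44low library 2 set the overlap of Myadm, with 7.72 CPM against at most 3.28 in the other 4.

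The 18 genes set apart in CD44low cells only were 11 negative and 7 positive calls. Itga4, the alpha-4 integrin chain that binds VCAM1, was lower after injury in CD44low cells, at 146 ± 11.1 against 87.5 ± 10.9 CPM, and was at 18.2 ± 2.45 and 26.3 ± 4.80 CPM in CD44high cells (interaction 1.27 ± 0.19, adjusted p = 0.000676). Max, the partner of MYC in DNA binding, was at 106 ± 12.1 and 39.1 ± 13.0 CPM in CD44low cells (interaction 2.27 ± 0.38, adjusted p = 0.00321). Sun2, an inner nuclear membrane protein that couples the nucleus to the cytoskeleton, was at 90.3 ± 25.8 and 22.8 ± 7.76 CPM (interaction 2.37 ± 0.41, adjusted p = 0.00383), and Elf2, an ETS family factor, at 130 ± 12.1 and 73.7 ± 16.4 CPM (interaction 1.28 ± 0.23, adjusted p = 0.00646). For Max, Sun2 and Elf2 the injured CD44low level came down to or below that of injured CD44high cells (66.1 ± 24.1, 23.8 ± 11.5 and 93.9 ± 21.6 CPM).

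Il7r, the IL-7 receptor alpha chain that keeps resting T cells alive, went the other way in CD44low cells. It was at 135 ± 20.9 CPM without and 328 ± 83.6 CPM with injury, while CD44high cells held 344 ± 29.3 and 355 ± 37.3 CPM (interaction -1.23 ± 0.22, adjusted p = 0.00417). After injury the subsets thus held nearly the same mean level, 92.5% in CD44low of that in CD44high cells, against 39.4% before. Hmmr, a spindle protein and hyaluronan receptor, went from 0.123 ± 0.205 to 1.77 ± 0.998 CPM in CD44low cells and was at 44.4 ± 6.56 and 32.6 ± 3.47 CPM in CD44high cells (interaction -4.11 ± 0.67, adjusted p = 0.00241). The uninjured CD44low libraries held 4 counts of Hmmr in all, so the size of its interaction is uncertain. D17H6S56E-5 was at 130 ± 12.5 and 242 ± 19.9 CPM in CD44low and at 293 ± 22.5 and 287 ± 31.4 CPM in CD44high cells (interaction -0.93 ± 0.14, adjusted p = 0.000676).

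Cell division genes were examined as lists. Of 78 tested members of a list of genes of the G2 and M phases, 7 were called, all negative, against 0.454% of all genes tested. These were Racgap1, Ccnb2 and Hmmr, and also Cdca8, Ccna2, Nuf2 and Stmn1. Of all 78, 74 had a negative interaction, against 6099 of the 11464 genes tested, and the median interaction was -0.97, against -0.03. On the fitted means the level after injury was lower in CD44high cells for 76 and higher in CD44low cells for 62, with median changes of -0.56 and 0.39. Both held for 60 (76.9%), against 2354 of all genes tested (20.5%), of which 6072 were lower in CD44high and 5833 higher in CD44low cells. Cdca8, a subunit of the chromosomal passenger complex, was at 86.1 and 62.8 CPM in CD44high and at 3.22 and 7.58 CPM in CD44low cells before and after injury (interaction -1.69 ± 0.35, adjusted p = 0.0204). Ccna2, cyclin A2, was at 170 and 115 CPM and at 9.92 and 14.4 CPM (interaction -1.10 ± 0.24, adjusted p = 0.0245).

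The mean log2 CPM over the list was 5.41 ± 0.142 in uninjured and 4.87 ± 0.107 in injured CD44high cells, and every injured library lay below every uninjured one (highest 5.02 against lowest 5.21). In CD44low cells it was 1.44 ± 0.179 without and 1.94 ± 0.243 with injury, and the ranges overlapped (1.305 to 1.745 against 1.60 to 2.32). Over the 78 genes the median CD44low level was 5.01% of the CD44high level in uninjured and 11.3% in injured mice. The CD44low level itself rose by a median of 1.85% of the uninjured CD44high level. The list's most abundant gene, Smc4, a condensin subunit, was an exception to these levels, at 305 and 368 CPM in CD44high and at 639 and 704 CPM in CD44low cells. Beyond the 7 calls no member passed the test singly.

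The list of DNA replication and S phase genes had a smaller median interaction. Of 70 tested members 1 was called, Mcm7, a subunit of the replicative helicase, at 244 ± 31.0 and 180 ± 3.40 CPM in CD44high and at 83.9 ± 5.69 and 101 ± 13.98 CPM in CD44low cells (interaction -0.71 ± 0.15, adjusted p = 0.0227). Its call was lost without uninjured CD44high library 3 or 4 or injured CD44high library 4 or 5 (values between -0.71 and -0.64, adjusted p between 0.0544 and 0.0675), and with libraries 1, 2 and 5 left out (-0.55, adjusted p = 0.076). The replicate block within condition lost the call too (-0.64, adjusted p = 0.188). The median over the list was -0.38, against -0.03 over all genes tested. Of 70 values 58 were negative, against 6099 of 11464 over all genes, of which 0.454% were called negative.

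Promoters of many cell cycle genes carry an element called CHR (TTTGAA) near the start site, which the DREAM and MuvB complexes bind, and CCAAT boxes, which NF-Y binds. RefSeq promoter windows (GRCm38.p6, 250 bases before to 50 after the start) are shown for the 3 called genes of the G2 and M phase list with the smallest p, Racgap1, Ccnb2 and Hmmr. Both strands were searched for both motifs. Capitals mark the CHR element and the CCAAT box, which reads ATTGG where it lies on the other strand, no match overlaps another in these windows, and each window is written 5′ to 3′ on the strand of the gene.
Racgap1, chr15:99651607-99651906, minus strand: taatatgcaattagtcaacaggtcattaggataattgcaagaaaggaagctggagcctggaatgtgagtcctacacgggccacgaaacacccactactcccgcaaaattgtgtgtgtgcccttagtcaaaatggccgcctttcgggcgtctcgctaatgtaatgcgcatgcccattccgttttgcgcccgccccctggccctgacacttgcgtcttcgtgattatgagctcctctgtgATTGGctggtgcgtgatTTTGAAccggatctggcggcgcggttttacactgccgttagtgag
Ccnb2, chr9:70421505-70421804, minus strand: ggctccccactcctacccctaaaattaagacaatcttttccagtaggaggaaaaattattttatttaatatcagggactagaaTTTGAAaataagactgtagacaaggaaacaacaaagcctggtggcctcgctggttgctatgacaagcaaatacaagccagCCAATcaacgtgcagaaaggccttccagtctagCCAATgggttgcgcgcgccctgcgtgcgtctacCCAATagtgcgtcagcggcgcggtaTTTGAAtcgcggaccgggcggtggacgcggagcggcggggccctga
Hmmr, chr11:40733388-40733687, minus strand: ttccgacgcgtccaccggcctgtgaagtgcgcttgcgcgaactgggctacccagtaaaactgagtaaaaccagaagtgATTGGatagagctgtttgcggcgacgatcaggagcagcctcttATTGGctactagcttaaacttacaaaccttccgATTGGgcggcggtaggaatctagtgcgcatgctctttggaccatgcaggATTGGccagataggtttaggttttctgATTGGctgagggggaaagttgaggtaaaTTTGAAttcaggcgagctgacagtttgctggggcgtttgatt

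All 3 windows held TTTGAA just after the start, beginning at base 6 in Racgap1, base 5 in Ccnb2 and base 9 in Hmmr, with the start site as base 1. Ccnb2 had a second match 167 bases before the start. CCAAT was found once in the window of Racgap1, 3 times in that of Ccnb2 and 5 times in that of Hmmr. Of the 8 called genes of both lists, 6 had a window (7 windows), of which 4 held TTTGAA and 6 held CCAAT. Over the whole G2 and M phase list, 68.2% of 66 windows held TTTGAA and 72.7% held CCAAT, against 17.9% and 37.4% of all 32851 windows of the table, and 12.2% and 37.8% of the 11603 windows of the genes tested. A match is a description of the sequence and no evidence of binding in these cells.

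**Figure D3:**
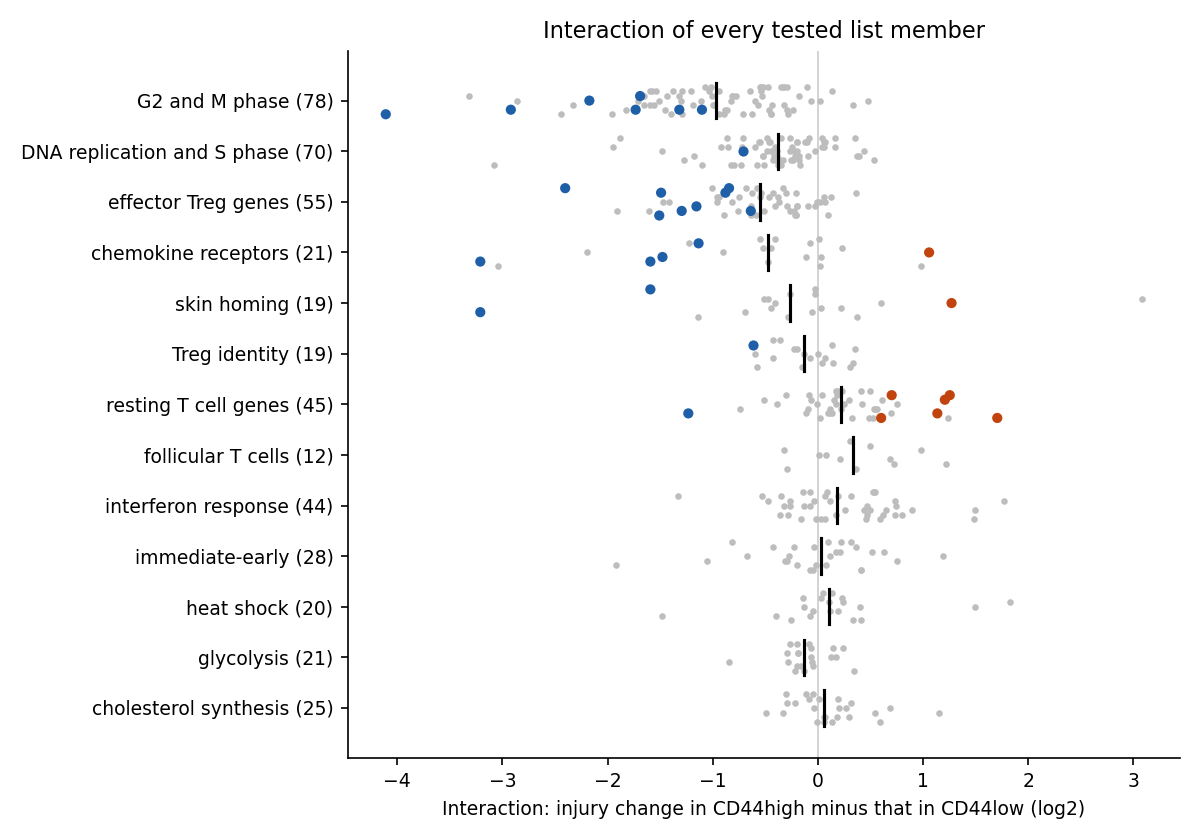
Interaction (log2) of every tested member of 13 gene lists, with the number of members in brackets, called genes in blue (negative) or orange (positive), other members in grey and the median of each list as a black line. The G2 and M phase list lies furthest to the left (median -0.97), and the list of resting T cell genes holds 6 of the orange points.

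Of 55 tested effector Treg genes, 8 were called, all negative, against 0.454% of all genes tested. The interaction was negative for 49 of the 55, against 6099 of all 11464 genes, with a median of -0.55, against -0.03. Lower in CD44high and higher in CD44low cells after injury were 25 of the 55 (45.5%), against 20.5% of all genes tested. The list was led by Lgals3, S100a6 and Anxa2. S100a6, a calcium-binding protein, was at 555 ± 77.3 and 465.8 ± 36.6 CPM in CD44high and at 18.9 ± 3.92 and 44.7 ± 13.5 CPM in CD44low cells (interaction -1.49 ± 0.25, adjusted p = 0.00321). Anxa2, a phospholipid-binding annexin, was at 466.2 ± 27.0 and 413 ± 64.7 CPM and at 37.7 ± 5.35 and 74.4 ± 15.6 CPM (interaction -1.15 ± 0.20, adjusted p = 0.00353). Both were apart in CD44low cells only.

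The other called effector genes were Lmna, Id2, Vim, Fgl2 and Rora. Lmna, which encodes the nuclear lamins A and C, was at 341 and 131 CPM in CD44high and at 13.9 and 15.2 CPM in CD44low cells (interaction -1.51 ± 0.28, adjusted p = 0.00671), and Vim, the intermediate filament protein vimentin, at 1871 and 948 CPM and at 489.6 and 457 CPM (interaction -0.88 ± 0.17, adjusted p = 0.0129). These stood apart in CD44high cells and overlapped in CD44low cells. Rora, a nuclear receptor, had an interaction of -0.64 ± 0.15 (adjusted p = 0.0426). It was also the 1 called member of 18 tested clock genes (median -0.18), against 0.645% called of all genes tested. Its call was lost in 18 of 32 alternatives, 14 of them with 1 library left out (values between -0.67 and -0.60, adjusted p between 0.0506 and 0.111).

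Genes of resting T cells held both positive and negative calls. Of 45 tested members, 6 were called positive, among them Satb1, Dennd2d, Tcf7, St8sia1 and Evl, against 0.192% of all genes tested, and 1 was called negative, Il7r. The interaction was positive for 35 members and negative for 10 (median 0.22), against 5365 positive of all 11464 genes tested. The median change with injury was 0.16 in CD44high and -0.13 in CD44low cells. Mean log2 CPM over the list was 6.44 ± 0.063 in uninjured and 6.64 ± 0.089 in injured CD44high cells, without overlap, and 8.03 ± 0.018 and 7.93 ± 0.102 in CD44low cells, with overlap. Il7r, the negative call, was higher after injury in CD44low cells, unlike the median member of its list. It was also the 1 called gene among 15 tested genes of the glucocorticoid response (median -0.49), against 0.645% called of all genes tested.

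Of 21 tested genes in the list of chemokine receptors, 4 were called negative, Ccr10, Ccr2, Cxcr6 and Cxcr3, and 1 positive, Gpr183. Over all genes tested, 0.454% were called negative and 0.192% positive. The interaction was negative for 15 of the 21, against 6099 of all 11464 genes, with a median of -0.47, against -0.03. Cxcr6, the receptor for the membrane-bound chemokine CXCL16, was at 196 ± 33.6 and 147 ± 16.2 CPM in CD44high and at 2.98 ± 0.684 and 6.74 ± 2.32 CPM in CD44low cells, with overlap in both (interaction -1.59 ± 0.29, adjusted p = 0.00671). Gpr183, which guides lymphocytes along oxysterol gradients, was higher after injury in both subsets without overlap, at 100 and 360 CPM in CD44high and at 99.4 and 172 CPM in CD44low cells (interaction 1.058 ± 0.23, adjusted p = 0.0267). Among 19 tested skin homing genes, Ccr10 and Cxcr6 were called negative and Itga4 positive, against the same shares over all genes. The list median was -0.26.

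No member was called for 12 tested follicular T cell genes (median 0.33), 44 of the interferon response (0.18), 28 immediate-early genes (0.03), 20 heat shock genes (0.11), 25 of cholesterol synthesis (0.06) or 21 of glycolysis (-0.13), against a median of -0.03 over all genes. Of all genes tested 0.645% were called, and at that share most lists of these sizes would hold no call. Il2rb was the 1 call among 19 tested Treg identity genes (median -0.13). Over the members of these 6 uncalled lists the median subset difference without injury was between -0.22 and 0.44, and it was 4.30 for the G2 and M phase list and 2.35 for the effector list.

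Genes of other cell types were counted beside these results. Ccr2 is also in the list of 20 tested macrophage and dendritic cell genes (median -0.58). There it was the most abundant gene in CD44high cells and the 1 call, against 0.645% called of all genes tested. The summed level over the 24 genes of this list in the table was 929 ± 62.8 and 807 ± 127 CPM in CD44high and 157 ± 10.4 and 241 ± 60.3 CPM in CD44low cells before and after injury. Without Ccr2 it was 361 ± 48.5 and 390 ± 84.5 CPM in CD44high and 146 ± 10.4 and 219 ± 57.5 CPM in CD44low cells, so that the lower sum after injury in CD44high cells came from Ccr2. The mean log2 CPM over the tested genes was 2.88 and 2.82 in CD44high and 0.76 and 1.57 in CD44low cells. Its next genes were Cst3 and Lyz2, and Lyz2, a defining gene of macrophages, was at 75.2 ± 32.1 and 119 ± 56.1 CPM in CD44high and at 22.5 ± 6.62 and 54.2 ± 34.99 CPM in CD44low cells, with a higher mean after injury in both subsets. Csf1r and C1qa were found in all 19 libraries, at a group mean of at most 11.6 CPM. The part of such cells in the results was not tested.

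Prf1 and Ccl5 were the 2 calls among 12 tested CD8 and NK cell genes (median -0.54). Both were called negative, as were 0.454% of all genes tested. Prf1, the pore-forming protein perforin, was at 31.9 ± 6.76 and 15.9 ± 3.45 CPM in CD44high and at 24.2 ± 5.15 and 32.2 ± 8.12 CPM in CD44low cells (interaction -1.42 ± 0.29, adjusted p = 0.0155), and its call was lost with libraries 1, 2 and 5 left out (-1.14, adjusted p = 0.0525). The replicate block within condition lost the call of Prf1 too (-1.28, adjusted p = 0.165). Ccl5, a chemokine of effector cells, was at 32.2 ± 5.46 and 13.5 ± 3.46 CPM and at 4.73 ± 0.827 and 6.12 ± 2.30 CPM (interaction -1.62 ± 0.35, adjusted p = 0.0267). The call of Ccl5 was lost without uninjured CD44high library 4 or 5, uninjured CD44low library 3 or injured CD44high library 4 (values between -1.61 and -1.51, adjusted p between 0.0511 and 0.075), and with counts thinned to the smallest total (-1.54, adjusted p = 0.0598). The summed level over the 18 genes of the list in the table was 213 ± 20.9 and 175 ± 12.8 CPM in CD44high and 131 ± 17.1 and 148 ± 6.98 CPM in CD44low cells, led by Nkg7. Cd8a, at 9.68, 10.98, 11.2 and 8.39 CPM in uninjured CD44high, injured CD44high, uninjured CD44low and injured CD44low cells, showed no common direction, whereas the NK cell gene Klrb1c was at 3.71 ± 2.47, 12.8 ± 2.68, 0.294 ± 0.422 and 2.32 ± 1.32 CPM, with a higher mean after injury in both subsets. The mean log2 CPM over the list was 2.55 and 2.83 in CD44high and 1.71 and 2.17 in CD44low cells. The part of such cells in the calls of Prf1 and Ccl5 was not tested.

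The remaining lists held no call, with median interactions of -0.13 for B cells, -0.18 for plasma cells, -0.13 for neutrophils and 0.75 for stroma and endothelium. At the 0.645% called over all genes tested, most lists of these sizes would hold none. The 22 B cell genes, led by Cd74, summed to 1765 ± 571 and 1512 ± 402 CPM in CD44high and to 787 ± 159 and 1061 ± 320 CPM in CD44low cells. Without Cd74 they summed to 633 ± 240 and 640 ± 252 CPM and to 435 ± 99.3 and 542 ± 167 CPM, and their mean log2 CPM was 3.69 and 3.95 in CD44high and 3.57 and 3.79 in CD44low cells. The 7 plasma cell genes in the table (5 tested), led by Xbp1, summed to 492.9 ± 32.2 and 481 ± 26.7 CPM and to 296 ± 18.8 and 335 ± 41.7 CPM. The 14 neutrophil genes in the table (4 tested), led by Mmp9, summed to 78.4 ± 24.9 and 77.9 ± 20.04 CPM and to 3.34 ± 2.80 and 16.4 ± 20.5 CPM, and Ly6g was at 0 in 17 of 19 libraries. Without Mmp9 they summed to 3.97 ± 1.49 and 17.0 ± 16.1 CPM and to 0.461 ± 0.713 and 11.4 ± 19.5 CPM, and the whole sum was highest among CD44low libraries in injured library 2 (56.8 CPM). S100a8 was at 0.045 and 3.56 CPM in CD44high and at 0.27 and 3.39 CPM in CD44low cells, and S100a9 at 0.042 and 3.96 CPM and at 0.068 and 2.99 CPM. Counted singly, each of these genes was at 0 in 3 of 4 uninjured CD44high and 4 of 5 uninjured CD44low libraries. The 18 genes of stroma and endothelium in the table (5 tested), led by Pecam1, summed to 78.8 ± 9.80 and 112 ± 16.5 CPM and to 208 ± 13.6 and 200.001 ± 36.5 CPM, with Pdpn at 0 in all 19 libraries. No red blood cell gene passed the filter, and Hba-a1 and Hbb-bs were at 0 in all 19 libraries.

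The relation of levels to transcript length differed between libraries. The slope of log2 CPM on each doubling of transcript length, relative to the mean over all libraries, was 0.001 ± 0.017 in uninjured and -0.050 ± 0.072 in injured CD44high cells, and 0.064 ± 0.024 and -0.021 ± 0.066 in CD44low cells. In CD44high cells the injured range (-0.149 to 0.019) held the uninjured one, with the lowest value in library 2, and in CD44low cells library 5_2 (0.076) lay within the uninjured range and the other 5 injured libraries below it. With each library's slope taken out, an alternative chosen after seeing the data, 89 genes were called, 71 of them among the 74, and 84 of the 89 became more alike between the subsets.

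The narrowing of the subset difference was described in several ways. A called gene was said to narrow when its interaction was opposite in sign to its mean subset difference (the log2 difference of CD44high over CD44low, averaged over uninjured and injured mice), and 69 of the 74 genes narrowed, 93.2% (95% exact binomial interval 84.9 to 97.8%, for counting error only, since genes are not independent). The 5 that widened were Klhl9, Prf1, Etfbkmt, Gpr183 and Ckb, each with an uninjured difference of less than 1 on the log2 scale. Among the 52 negative calls the median subset difference went from 3.15 to 2.24, and among the 22 positive calls from -1.87 to -0.43. Over the 51 negative calls that were higher in uninjured CD44high cells, the median CD44low level was 10.9% of the CD44high level without injury and 20.3% with it. The CD44low level itself rose by a median of 4.66% of the uninjured CD44high level. Choosing genes by the interaction favours a larger uninjured than injured difference in these medians.

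Genes that were not called were then included. Of all 2130 genes with a mean subset difference of at least 1 in either direction, 76.6% had a smaller difference after injury, with a median change of -0.41 towards 0, and the median size of the difference went from 1.81 to 1.47. The spread of the differences shrank to 0.751 of its uninjured value (the ratio of root mean squares). Over the 2082 of them that were not called, 76.0% had a smaller difference, the median size went from 1.79 to 1.46 and the ratio was 0.760. Over all 11464 genes, 63.7% had a smaller difference, and the ratio was 0.761. With injured CD44low libraries 1, 2 and 5 left out, the share of genes with a smaller difference was 64.3% and the ratio 0.831, and with 1_2, 4_2 and 5_2 left out they were 75.5% and 0.776.

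Both subsets took part in this on the fitted means, though not equally for both directions. For the 1351 genes higher in CD44high cells, the median change with injury was -0.27 in CD44high and 0.26 in CD44low cells, and the ratio was 0.738. For the 779 genes higher in CD44low cells, it was 0.05 in CD44high and -0.22 in CD44low cells, and the ratio was 0.808. For the 779 genes the mean log2 CPM in injured CD44low libraries 4_2 and 5_2 was 4.06 and 4.25, against 4.08 to 4.23 in the uninjured ones, while the other 4 injured libraries lay between 3.55 and 3.86. In injured CD44high library 2 the mean over the 779 genes was 2.34, below the uninjured CD44high libraries (2.54 to 2.60). The other injured CD44high libraries lay between 2.69 and 2.85. The 22 positive calls had another balance, with median changes of 0.91 in CD44high and -0.11 in CD44low cells.

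**Figure D4:**
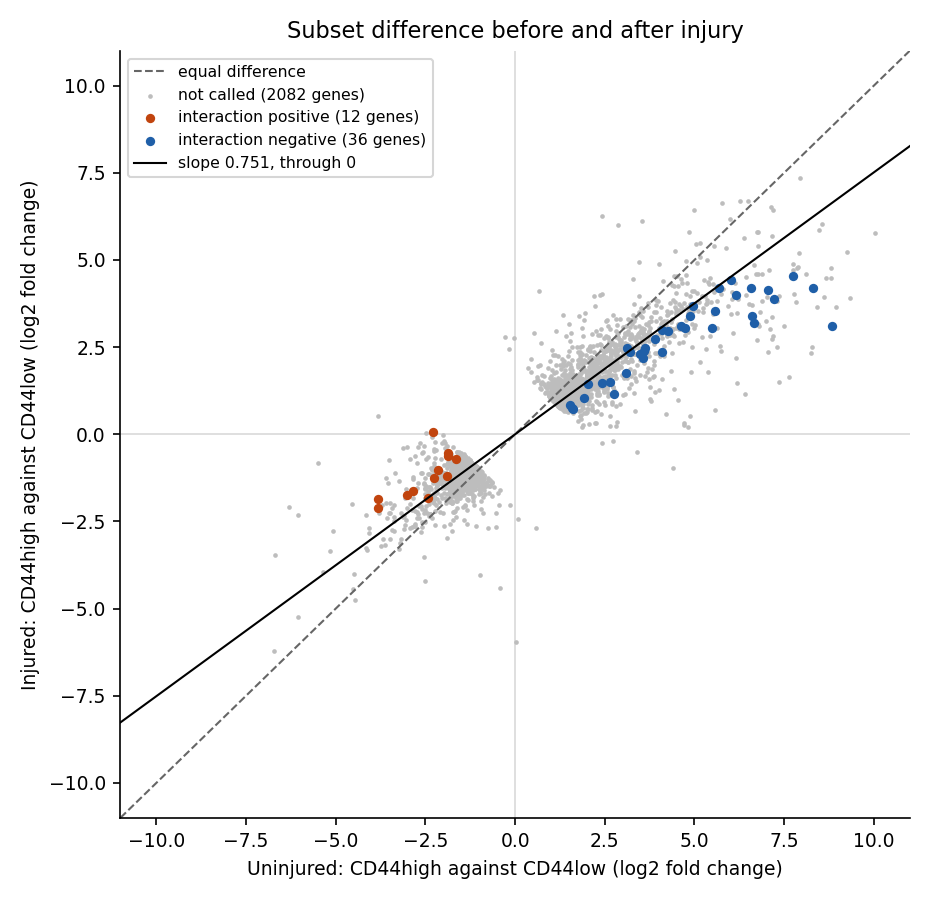
Log2 fold change of CD44high over CD44low Tregs in uninjured mice (x axis) and in injured mice (y axis) for the 2130 genes with a mean difference of at least 1, of which 12 were called positive (orange), 36 called negative (blue) and 2082 not called (grey). The dashed line marks an equal difference, and the black line has the slope of 0.751. Most points lie between the dashed line and 0 on the y axis.

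The genes with the largest subset differences were described singly. Among genes of at least 10 CPM on average, the 5 with the largest mean difference towards CD44high cells were Hmmr, Klrg1, Pbk, Gzmb and Havcr2, and of these Hmmr alone was called. Their log2 differences went from 8.30 to 4.20 for Hmmr, from 7.15 to 5.68 for Klrg1, from 7.76 to 4.90 for Pbk, from 6.77 to 5.81 for Gzmb and from 7.18 to 6.43 for Havcr2, so that all 5 were smaller after injury on the fitted means. In uninjured CD44low cells these rest on 4, 73, 4, 121 and 16 counts over all libraries, in the same order. The sizes of the differences are thus uncertain, most of all for Hmmr and Pbk. Klrg1, an inhibitory receptor of effector lymphocytes, was at 322 ± 69.9 and 371 ± 47.4 CPM in CD44high and at 2.26 ± 1.77 and 7.20 ± 2.67 CPM in CD44low cells (interaction -1.47 ± 0.42, adjusted p = 0.115). Its call appeared without uninjured CD44low library 2 (-2.03, adjusted p = 0.0152) or injured CD44low library 5 (-1.64, adjusted p = 0.0425). Gzmb, the protease granzyme B, was at 408 ± 94.95 and 312 ± 38.5 CPM and at 3.75 ± 2.02 and 5.49 ± 2.99 CPM (interaction -0.96 ± 0.43, adjusted p = 0.404). Havcr2, the inhibitory receptor TIM-3, was at 73.6 ± 6.47 and 70.6 ± 12.6 CPM and at 0.488 ± 0.714 and 0.79 ± 0.884 CPM (adjusted p = 0.8). Pbk, a mitotic kinase, had an interaction of -2.86 ± 0.86 (adjusted p = 0.146), and it was called by DESeq2 (-3.04, adjusted p = 0.0267) and with libraries 1_2, 4_2 and 5_2 left out (-3.36, adjusted p = 0.0289). It was also called without uninjured CD44low library 4 (adjusted p = 0.0314), the 1 library of that group in which it was found, where the fitted value rests on a group at 0 and is not given.

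On the side of CD44low cells the 5 were Ly6c1, Cnn3, Gm4956, Sorcs2 and Igfbp4, and none was called (adjusted p between 0.476 and 0.954). Ly6c1, a surface antigen of resting and memory T cells, was at 10.4 ± 1.92 and 13.7 ± 1.65 CPM in CD44high and at 235 ± 25.3 and 219 ± 55.2 CPM in CD44low cells (interaction 0.50 ± 0.25), and was called with injured CD44low libraries 1_2, 4_2 and 5_2 left out (0.82, adjusted p = 0.0382). Igfbp4, which binds insulin-like growth factors, was lower after injury in both subsets on the fitted means, at 75.01 ± 21.6 and 53.5 ± 16.4 CPM and at 704 ± 73.4 and 527 ± 68.2 CPM (interaction -0.07 ± 0.25).

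A library score put the genes together: the mean log2 CPM over the 1351 genes higher in CD44high cells minus that over the 779 genes higher in CD44low cells. In uninjured mice it was 1.46, 1.45, 1.44 and 1.43 in CD44high libraries 2 to 5 and -2.63, -2.42, -2.49, -2.52 and -2.53 in CD44low libraries 1 to 5. In injured mice it was 1.39, 0.91, 1.12 and 1.17 in CD44high libraries 2 to 5. In injured CD44low cells it was -1.53, -1.88 and -1.85 in libraries 1, 2 and 5, and -2.02, -2.22 and -2.28 in libraries 1_2, 4_2 and 5_2. Every injured library of a subset lay closer to the other subset than every uninjured one, and no CD44high library came near a CD44low library.

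The group means of the score were 1.44 ± 0.012 and 1.15 ± 0.197 in CD44high and -2.52 ± 0.076 and -1.96 ± 0.273 in CD44low cells, so that the distance between the subsets went from 3.96 to 3.11, a change of -0.85 against a pooled SD of 0.185 between libraries of a group. With injured CD44low libraries 1, 2 and 5 left out the change was -0.52, and with 1_2, 4_2 and 5_2 left out it was -0.96. The genes of the score were chosen by the subset difference in these libraries, so the score is a description without a test.

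**Figure D5:**
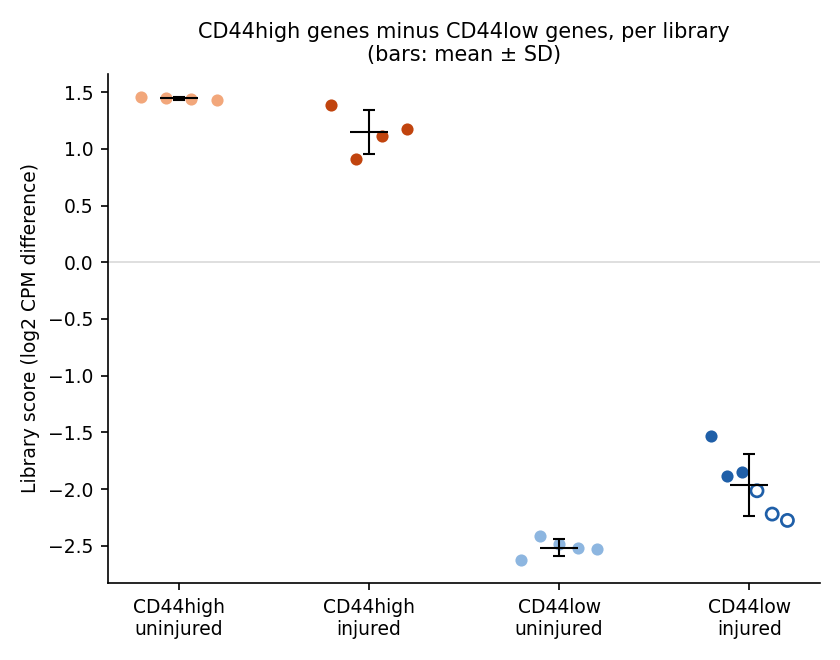
Library score (mean log2 CPM of 1351 genes higher in CD44high cells minus that of 779 genes higher in CD44low cells) for each of the 19 libraries, with mean and SD as black bars and injured CD44low libraries 1_2, 4_2 and 5_2 as open circles. Injured libraries lie closer to the other subset, the open circles less so than libraries 1, 2 and 5.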

How the data were processed

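Read counts per gene, as deposited by the authors, were used for all 19 libraries. The authors made cDNA with the SmartSeq v4 kit and libraries with Swift 2S reagents and processed the reads with the VIPER workflow, and the submitters' processing notes name STAR 2.5 and bcl2fastq 2.18 and list both mm9 and mm10, so that the build behind the counts is uncertain. Which annotation was counted is not stated in the sources. Of 24982 genes, 8091 had no counts, and 24827 symbols matched RefSeq (24417) or GENCODE vM21 (410).

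Counts were filtered with filterByExpr (minimum count 10), scaled by TMM factors and fitted with edgeR 4.0.16 (R 4.3.3) by quasi-likelihood, with 1 mean per group and no replicate block, over all 4 groups. The interaction was tested over 11464 genes with Benjamini-Hochberg adjustment, and adjusted p under 0.05 was a call. SE is the log2 value divided by the root of F, and log2 CPM used a prior count of 2. DESeq2 1.42.0 and limma 3.58.1 were alternatives. On simulated counts (11464 genes, 200 changed), 47% of changes of log2 size 1 and 88% of size 2 were recovered, and 7 unchanged genes were called. Each simulated gene had the same mean in all groups, and changes were put in injured CD44high libraries alone. The rates therefore do not apply to genes that CD44low cells hold at a far lower level. Total counts were 5582234 to 9433610 per library, and intervals cover counting error only. No pair of libraries of a group differed by as little as sampling noise (chi-square per gene 4.96 to 41.3).

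Members and gene lists were chosen with earlier results of these data known. Genes were named by rule: the given markers, the smallest p in each direction, in each response class and in each list, the largest mean subset differences, and the sort genes Cd44, Foxp3 and Cd4. Cdca8, Ccna2, Lmna, Vim, Gpr183 and the other called list members were named outside it, after their values were seen. Values of some genes that met the rule are not reported here.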

Additional observations from a re-analysis of the deposited data

Results flagged for a closer look

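The response to injury differed between the subsets by the interaction test itself for 74 genes, and for those named the log2 values were as follows. Among positive values, Satb1 had 1.71, Dennd2d 1.25, Itga4 1.27, Max 2.27, Tcf7 0.70, Sun2 2.37, Elf2 1.28, Art2b 1.97 and Prag1 1.34. Among negative values, Ccr10 had -3.21, Racgap1 -1.73, Ccnb2 -2.17, Lgals3 -2.40, Jaml -2.23, Alox8 -2.45, D17H6S56E-5 -0.93, Hmmr -4.11, Myadm -2.05, Ccr2 -1.48, S100a6 -1.49, Anxa2 -1.15, Il7r -1.23, Cxcr6 -1.59, Prf1 -1.42, Il2rb -0.61, Mcm7 -0.71, Ccl5 -1.62 and Rora -0.64.

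In 15 of 164 groups of libraries examined (9.15%), 1 library lay far from the others by Dixon's criterion, which chance alone meets in about 1 of 20. In uninjured CD44high cells these were library 3 for Lgals3 (170 CPM), Jaml (49.8 CPM) and Havcr2 (63.9 CPM), library 2 for Alox8 (58.5 CPM), Prf1 (42.1 CPM) and Klrg1 (425 CPM), and library 4 for Itga4 (14.5 CPM). In injured CD44high cells they were library 2 for Itga4 (19.1 CPM), Rora (264 CPM) and Gm4956 (19.8 CPM) and library 5 for S100a6 (520.3 CPM). In uninjured CD44low cells they were library 2 for Myadm (7.72 CPM) and library 4 for Pbk (0.575 CPM), and in injured CD44low cells library 5_2 for Sun2 (37.7 CPM) and library 1 for Havcr2 (2.53 CPM).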

How the results depend on the processing

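No interaction changed sign among the 74 called genes in any alternative in which they were tested. DESeq2 called 217 genes (58 positive, 159 negative), all 74 among them, and limma voom with sample weights called 360 (129 and 231), 72 of the 74 among them. At an adjusted p under 0.01, 24 remained (8 and 16), of which 100% narrowed. With injured CD44low libraries 1_2, 4_2 and 5_2 left out 314 were called (151 and 163), and with libraries 1, 2 and 5 left out 136 (39 and 97), of which 74.3% narrowed, with a ratio of subset differences of 0.831 and a score change of -0.52. The score change was -0.56 with no filter on low counts and -1.27 over genes with a mean difference of at least 2. Called genes that stood apart in CD44high cells only and in CD44low cells only numbered 117 and 44 by DESeq2, 131 and 76 by limma voom and 8 and 9 at an adjusted p under 0.01, and the former 25 where an interaction of at least 1 was also asked for. The cause of these shifts was not tested.

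Leaving out 1 library at a time gave 43 to 110 calls, 16 to 34 positive and 27 to 76 negative, with 43 without injured CD44high library 5 and 110 without injured CD44high library 2. A narrowed share of 89.1 to 95.5%, a ratio of 0.724 to 0.771 and a score change of -0.90 to -0.74 were found in those fits. The correlation of deviations was over 0.1 in 4 of 8 pairs of same-numbered libraries (-0.05 to 0.17, median 0.08) and in 5 of 36 pairs with other numbers (median -0.02). The methods name no pairing and no label ties a number to an animal, so the libraries were not treated as paired. A pairing was not excluded. A fit with the number within condition as a replicate block called 35 genes (14 positive, 21 negative), 29 of them among the 74, and a replicate block on the number alone called 57, of which 54 were shared. The first block left 21 genes apart in CD44high cells only and 7 in CD44low cells only, and the second 25 of the former. Among the genes named by rule, the block within condition lost the calls of Rora, Mcm7, Prf1, Tcf7, S100a6, Sun2 and Cxcr6, and that on the number alone the call of Rora. Counts thinned to the smallest total gave 71 calls, 64 of them among the 74. At 1 CPM a library holds fewer than 10 counts of a gene, and whether depth limited the calls of low genes was not tested.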
